A study of Mus musculus with 11 samples.

Results

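The 74 mature miRNAs described here came from hairpins that miRBase numbers miR-6896 to miR-7094, a block of entries catalogued together as mirtrons. They were all rows of the count table with a number in that range, on either arm, and a sum of 20 or more counts over the 11 libraries. The range held 403 of the 1966 mature miRNAs in the table, 264 of them had a count in some library, and 329 stayed under 20 counts. The 74 members were 38 5p arms and 36 3p arms of 62 hairpins, 12 of which had both arms among the members. The members were thus selected on their summed counts, and their level over all libraries together is a description and is not tested.

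Small RNA was sequenced from mouse embryonic stem cells grown without feeder cells in medium with LIF and the 2i inhibitors. All carried the same strain label, NBA1-19349 from Novus Biochemicals. The KO group had 3 libraries of non-transfected DGCR8 -/- cells whose titles name clone 261, treated with doxycycline. Induced wild type was 3 clones (10, 12 and 16, genotype DGCR8 wt/wt) transfected with the vector pSB ET iE-FlagDGCR8-wt and the transposase plasmid pCMV(CAT)-SB100X. Induced E518K was 3 clones (8, 13 and 15, genotype DGCR8 E518K/E518K) transfected with the matching E518K vector, a version of DGCR8 with a lysine in place of a glutamate, and the same transposase plasmid. Doxycycline was given at 300 ng/mL for 48 h, and wild-type clone 10 and E518K clone 8 were also sequenced untreated, 1 library each. All 3 KO titles name the same clone, while the series' design text speaks of 3 independent clones per condition. The spread between KO libraries may thus be technical, and p-values measure only the spread between these samples. KO cells also differ from the other groups in not having been transfected, which cannot be told apart from the loss of DGCR8. No batch or sequencing date is given in the labels.

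Most miRNAs are cut from their primary transcripts by the microprocessor, in which DGCR8 binds the RNA and Drosha cuts it. Mirtrons are short introns, or pieces at the end of introns, that fold into a hairpin once splicing has released them. The spliceosome therefore makes at least 1 end of the hairpin, and after debranching and, for tailed forms, trimming, Dicer cuts it into a 5p and a 3p arm without Drosha and DGCR8. An intron begins with GU at its donor site and ends with AG at its acceptor site, and those bases mark the spliced ends of a mirtron.

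The hairpins below are those of miR-7068, miR-6896 and miR-6945. They are shown because the first fills a whole intron and the other 2 form the end of a longer one, which is the arrangement of most members. Sequences are from RefSeq with positions in GRCm38.p6, 5′ to 3′, and capitals mark bases that are the GU or AG of an annotated intron end.
Mir7068 (chr8:72470016-72470089, minus strand): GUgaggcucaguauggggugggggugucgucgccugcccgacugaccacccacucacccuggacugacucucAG
Mir6896 (chr1:34117359-34117431, plus strand): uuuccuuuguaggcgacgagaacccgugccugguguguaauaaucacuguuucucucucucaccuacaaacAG
Mir6945 (chr13:55507625-55507692, minus strand): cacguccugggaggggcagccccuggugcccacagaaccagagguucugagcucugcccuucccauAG
Mir7068 lies in an intron of Cherp, which encodes a nuclear protein of pre-mRNA splicing, and begins with GU and ends with AG. Mir6896, in Dst (the cytoskeletal linker dystonin), and Mir6945, in Pdlim7 (a PDZ and LIM domain protein bound to actin), carry only the AG.

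The mature sequences of 11 of the 12 most abundant members follow, with the seed (bases 2 to 8), the part that pairs with target RNAs, in capitals. They are shown because these 12 held 60.4% of the members' counts in KO.
miR-7068-3p: uCACCCUGgacugacucucag
miR-6896-5p: uUUGUAGGcgacgagaacccgu
miR-6992-5p: uGCCUGUGaugguuuggcugagu
miR-7079-3p: uGACUUCUguucucuuuccag
miR-6966-3p: uGCUGUGUgcuuccucugcag
miR-7073-5p: uGGGGGAAuugaaagacuauga
miR-6932-5p: uUGUAGGUgaaguagacuuggc
miR-7021-5p: aUAGGAGUugauuacagagcaa
miR-6900-3p: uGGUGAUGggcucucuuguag
miR-6945-3p: uCUGAGCUcugcccuucccau
miR-6975-3p: uCUCUCCUuucuccuccuag
The twelfth is miR-6979-3p. The 3p sequences above, except miR-6945-3p, end in AG. The sequence of miR-6945-3p stops 2 bases before the end of the intron.

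Few members shared a seed. The 3p arms of miR-7068 and miR-7018 had the seed CACCCUG, which miR-7023-3p also carries with 0 counts in all libraries.
miR-7068-3p: uCACCCUGgacugacucucag
miR-7018-3p: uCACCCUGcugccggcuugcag
miR-7023-3p: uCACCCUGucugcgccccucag
The 5p arms of miR-6967 and miR-7016 shared AGGGAGG with miR-149-3p and miR-1943-5p, and the 5p arms of miR-6911 and miR-7079 shared GGGCUGA. The seed of miR-6932-3p, CUGUUCU, was that of the passenger arms miR-26a-2-3p and miR-26b-3p, whose sequences otherwise differ.
miR-6967-5p: cAGGGAGGgauaaagaccagu
miR-7016-5p: cAGGGAGGggagcgagaguag
miR-6911-5p: uGGGCUGAgugggucuguggcau
miR-7079-5p: aGGGCUGAggcagugaguccug
miR-6932-3p: uCUGUUCUgcuuccucugcag
miR-26b-3p: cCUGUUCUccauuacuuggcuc

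The hairpins lay where their label places them. Of the 62 member hairpins, 61 (98.4%) ended at the last base of an annotated intron on the same strand. Among all 201 hairpins of the numbered range, 188 (93.5%) lay within 3 bases of an acceptor site, and among 824 other miRNA hairpins 37 (4.49%) did. In 7 cases the member hairpin was the whole intron, in 53 it formed the acceptor end of a longer one, and Mir7082 covered its whole intron and 4 bases before it. Mir6977, in the receptor phosphatase gene Ptprs, was the exception and lay at the donor end. The whole-intron cases were Mir7068 (Cherp, 74 bases), Mir7018 (Hspg2, 85 bases), Mir6958 (Dennd6b, 73 bases), Mir7091 (Dnase1l1, 79 bases), Mir7088 (Mst1, 86 bases), Mir6970 (Skiv2l, 67 bases) and Mir7070 (Fbxw9, 86 bases). Of these, the Mir7088 intron begins with GC in place of GU.

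The intron piece before an acceptor-end hairpin had a median of 611 bases. It was at most 100 bases in 8 of the 53 and at least 1000 bases in 21, up to 19633 bases for Mir6962 in Acvr1b, the gene of an activin receptor. The member hairpins themselves had a median of 67.5 bases and ranged from 52 to 109.

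**Figure D1:**
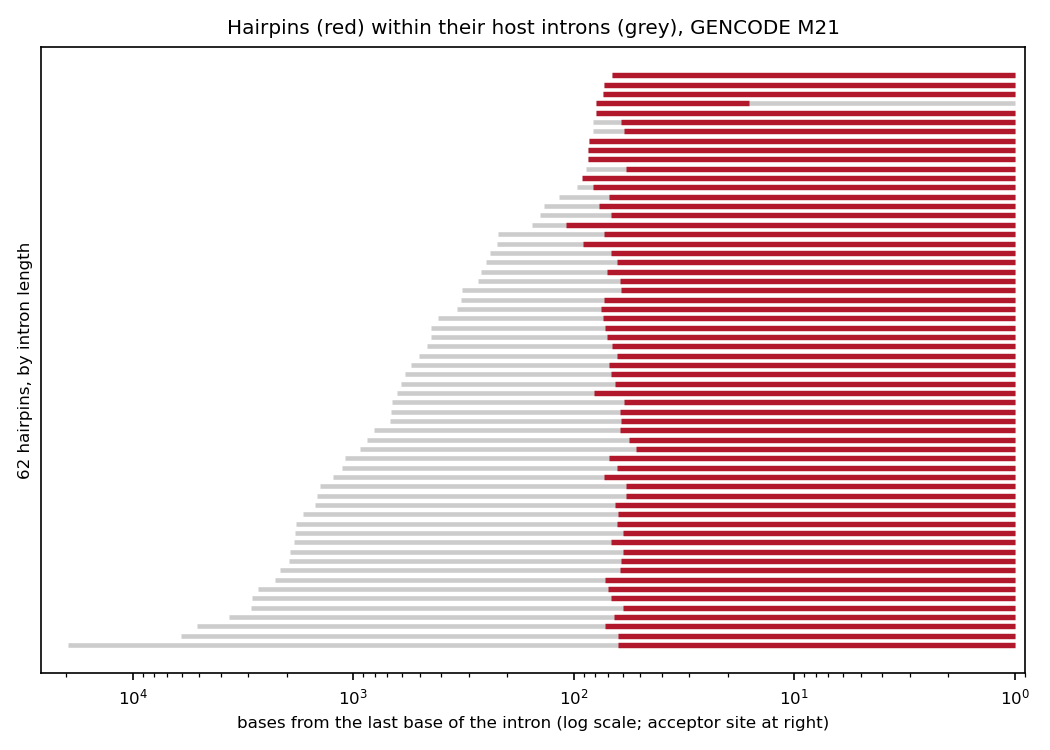
Each line is the host intron of 1 of the 62 member hairpins, in grey with the hairpin in red, drawn by the distance in bases from the last base of the intron (log axis, acceptor site at the right) and ordered by intron length. All hairpins but 1 reach the acceptor site, 7 are the whole intron, and 53 are preceded by intron pieces of up to 19633 bases.

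The ends of the mature 3p arms followed the acceptor site, while few 5p arms began with the GU of a donor site. Of 33 members on the 3p arm with a sequence, 25 (75.8%) ended in AG, beside 78.5% of 144 other 3p arms of the range and 10.9% of 532 3p arms of other miRNAs. The last base of 25 of the 33 was the last base of the intron, and 31 lay within 2 bases of it. The 3p members were pyrimidine-rich, with a median of 68.2% C and U against 54.5% in 3p arms of other miRNAs. Among 37 members on the 5p arm with a sequence, 3 began with GU and the median pyrimidine share was 36.0%, against 50% in 5p arms of other miRNAs. These are properties of the annotated sequences and not of the reads.

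Library totals differed with the group and bear on every value below. The KO libraries had from 166676 to 208846 miRNA counts, induced wild type from 3394216 to 6128734, induced E518K from 1050564 to 1797240, and the untreated libraries had 1421247 (wild type) and 264507 (E518K). Most counts from 1 to 40 were even (90.3%), as were 88.4% of the members' values above 0, so a small RNA seems to be counted as 2. The floor for a value of 0 was therefore set at 6 counts per library, or 3 small RNAs. On the scaled level this floor was 12.8 to 18.3 CPM in KO, 3.93 to 6.04 CPM in induced E518K and 1.11 to 2.94 CPM in induced wild type. Known embryonic stem cell miRNAs (miR-290a, miR-291a, miR-292a, miR-293, miR-294, miR-295 and miR-302a to miR-302d, 20 arms) held 34.4% to 39.6% of the counts in induced wild type, 15.7% to 18.03% in induced E518K and 0.127% to 0.370% in KO, where 8 of the 20 were at 0. Fewer cells of a kind and less RNA per cell cannot be told apart in these bulk samples.

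As a share of all miRNA counts, the members were lowest in induced wild type and highest in KO. They made up 0.668%, 0.802% and 0.690% of the counts in the 3 KO libraries and 0.00306%, 0.00315% and 0.00556% in induced wild-type clones 10, 12 and 16. Induced E518K clones 8, 13 and 15 had 0.0348%, 0.0359% and 0.0274%. The 3 groups did not overlap, and E518K lay between the others. The means were 0.720% ± 0.0714 in KO, 0.00392% ± 0.00142 in wild type and 0.0327% ± 0.00464 in E518K (n = 3 each, SD), which is 183.5-fold for KO over wild type, 8.32-fold for E518K over wild type and 22.0-fold for KO over E518K. A share falls when other miRNAs rise, so these folds depend on the other miRNAs too.

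The counts themselves showed the same order of groups with smaller distances. The members' counts summed to 1396, 1336 and 1169 in KO, to 625, 377 and 388 in induced E518K and to 104, 193 and 330 in induced wild type. Among the induced groups the KO libraries held the most member counts although they had the smallest totals, and the wild-type libraries the fewest although they were the deepest. In mean counts KO was 6.22-fold and E518K 2.22-fold above wild type. The rows of the same numbered range that stayed under 20 counts added at most 167 counts in a KO library, 36 to 97 in induced wild type and 68 to 106 in induced E518K.

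The untreated libraries stood above their induced counterparts. Wild-type clone 10 had 497 member counts (0.0350%) untreated and 104 (0.00306%) induced, an 11.4-fold larger share, and E518K clone 8 had 1451 (0.549%) untreated and 625 (0.0348%) induced, 15.8-fold larger. The untreated E518K share lay just under the KO range, while the untreated wild-type share was within 0.0274% to 0.0359%, the range of induced E518K. On the scaled level 55 members were higher and 2 lower untreated in wild-type clone 10, and 71 were higher and 3 lower in E518K clone 8. These are counts without a share over all tested miRNAs. The untreated libraries were also shallower, so a few small RNAs scale to a higher level there. The floor of 6 counts was 8.75 CPM untreated and 2.94 CPM induced for clone 10, and 19.1 and 3.93 CPM for clone 8. There is 1 untreated library per genotype, so the differences between untreated and induced libraries have no replicate check.

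**Figure D2:**
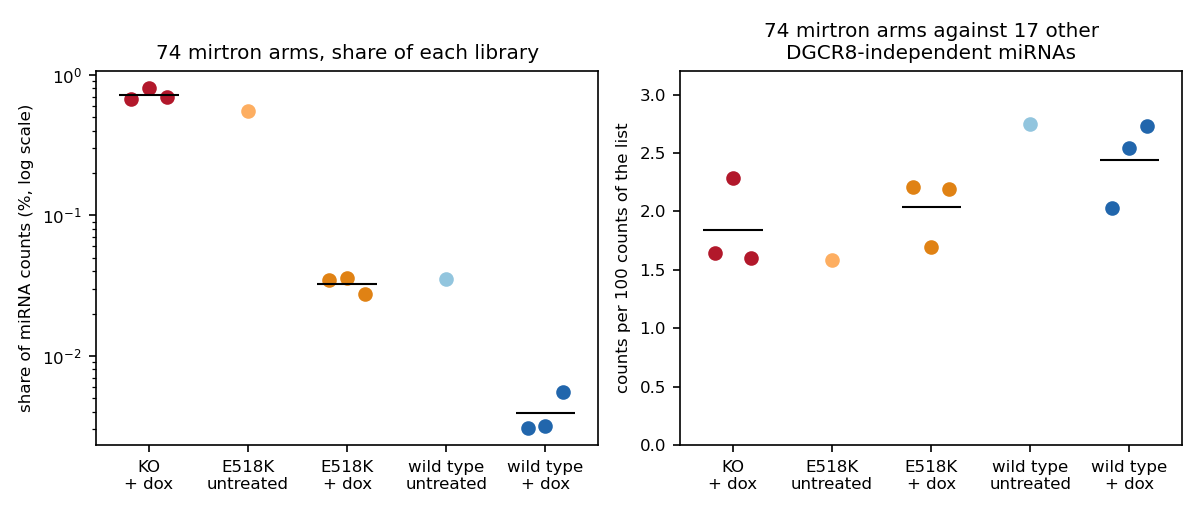
The first panel gives the members' share of the miRNA counts of each library in percent on a log axis, and the other the members' counts per 100 counts of 17 other miRNA arms that need no DGCR8, with 1 point per library and the mean of each group of 3 as a bar. The share separates KO, induced E518K and induced wild type, while the ratio lies between 1.58 and 2.75 in all 11 libraries.

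Relative to other small RNAs that do not need the microprocessor, the members varied less than in their share of all counts. Set against the summed counts of 17 arms of such miRNAs (other mirtrons, hairpins at transcription start sites, and pieces of snoRNAs and a tRNA), the members had 1.58 to 2.75 counts per 100, a range of 1.73-fold, where the share ranged 262-fold. The ratio was 1.84 ± 0.383 in KO, 2.04 ± 0.293 in induced E518K and 2.44 ± 0.365 in wild-type clones (SD, n = 3 each), and without doxycycline 2.75 in wild type and 1.58 in E518K. A single RNA weighed on it, since miR-1981-5p, from an intron, held 59.5% of the 17 arms' counts in KO and 22.7% in induced E518K. Without the arms of miR-1981 the ratio was 4.01 to 5.44 in KO, 2.197 to 3.03 in induced E518K and 2.47 to 3.09 in induced wild type, so that KO no longer overlapped the other 2 groups. The ratio therefore depends on which miRNAs it is set against.

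Compared with induced wild type, 73 of the 74 members were called higher in KO and none lower, beside 30.0% of all 730 tested miRNAs called higher and 58.4% called lower. Their median fitted log2 difference was 5.74, beside -3.54 over all tested miRNAs, and 4.84 with the 16 members that had no count in induced wild type set to their floor. The exception was miR-7089-3p, from an intron of the phosphatase gene Cdc25a. These counts, and the adjusted p-values of single members given below, are descriptions and no support for a difference. The low-count filter asked for 7.05 CPM, all 74 members reached it in a KO library and none in an induced wild-type library. Counts without scaling gave the narrower result that 44 of 74 had more counts in each KO library than in any wild-type library, beside 15.8% of the tested miRNAs. On the scaled level 59 did, beside 24.9%. The summed KO counts exceeded the summed wild-type counts for 71, a count without a share over all tested miRNAs. Some members with counts in induced wild type had a KO mean under the lowest KO floor of 12.8 CPM. On the 5p arm these were miR-7068, miR-6967, miR-6947, miR-6918, miR-6933, miR-7063, miR-7089, miR-7026 and miR-7091. On the 3p arm they were miR-6969, miR-7026, miR-6998, miR-6977, miR-7053 and miR-7089. Their KO log2 differences below rest on levels under that floor.

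Compared with wild type, induced E518K had 47 members called higher, none lower and 27 not called, beside 28.2% of the tested miRNAs called higher and 35.3% called lower. The median log2 difference was 2.64, beside -0.14 over all tested, and 1.96 with members at 0 set to their floor. On the scaled level 34 members did not overlap, beside 25.8%, and in raw counts 12, beside 6.85%. The 5p and 3p arms were called in like numbers, 23 of 38 and 24 of 36. These counts and the adjusted p-values of single members in E518K too are descriptions, since 53 members reached the filter only in KO or untreated libraries. A fit of these 2 groups alone left 9 members after the filter, all 9 called higher, beside 153 of the 530 miRNAs tested there. This count is a description too. In the filter of the main fit, 21 members reached it in induced E518K and none in induced wild type. E518K and KO share the wild-type libraries in these comparisons, so their directions are not independent. Some members called in E518K had a mean there under the lowest induced E518K floor of 3.93 CPM. On the 5p arm these were miR-7070, miR-7054, miR-6955, miR-7003, miR-6966, miR-6962, miR-6967, miR-6947, miR-7041, miR-7061 and miR-7084. On the 3p arm they were miR-6945, miR-6932, miR-6988, miR-7018, miR-6958, miR-6970, miR-6969, miR-7088, miR-7026, miR-7090, miR-7030, miR-6998 and miR-7082.

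Between the mutant groups, 56 members were lower in E518K than in KO and none higher, beside 26.2% of the tested miRNAs called lower and 41.9% called higher. The median was -2.91, beside 1.35 over all tested. The scaled levels of 56 did not overlap, beside 24.8%, and the raw counts of 26 did not, beside 11.9%. For 70 of 74 members the mean scaled level in E518K lay between those of wild type and KO, a count without a share over all tested miRNAs. These counts are descriptions too, since all 74 members reached the filter in KO and 21 in induced E518K. Without E518K clone 15 the count lower than KO was 37.

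**Figure D3:**
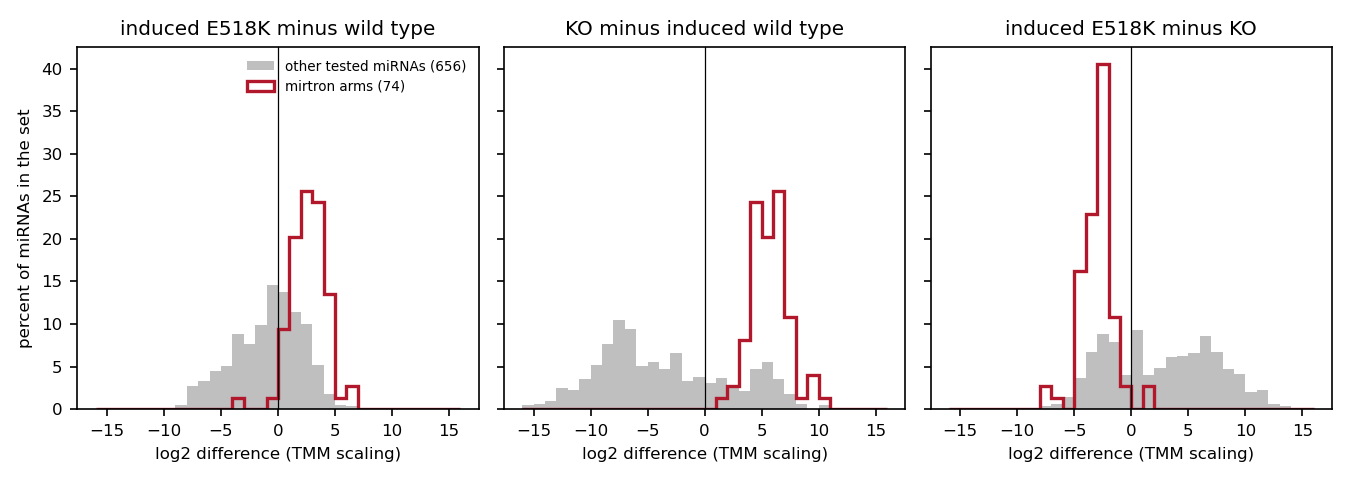
Histograms of the fitted log2 difference (x axis) for the members and for the other tested miRNAs, as a percentage of each set (y axis), in the comparisons of the induced groups. The members' medians are 5.74 in KO against wild type, 2.64 in E518K against wild type and -2.91 in E518K against KO.

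The calls depend on the scaling. Scaled to the summed counts of the 17 DGCR8-independent arms, 5 members were higher and 7 lower in KO than in wild type, with a median of -0.31, and 2 were higher and 3 lower in E518K, with a median of 0.05. Of all 730 tested miRNAs, 12 were higher and 560 lower in KO, and 7 higher and 510 lower in E518K. Without miR-1981 among the 17, a setting chosen after seeing the data, the KO median was 0.79 with 7 higher and 2 lower, beside 26 and 536 of all tested. The scaling to all 17 arms put the median of all tested miRNAs at -9.30 in KO against wild type. The members' median thus lay above that of all tested miRNAs under both this scaling and TMM, and its sign in KO differed between them.

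The most abundant member was miR-6979-3p, from an intron of Diaph1, which encodes a formin that nucleates actin filaments. The KO libraries had 300 and 237 counts in libraries 1 and 2 and a sum of 760 over all 3, against 4, 10 and 19 in induced wild type, 51, 28 and 42 in induced E518K, and, without doxycycline, 38 in wild type and 198 in E518K. All 3 KO counts and all 3 induced E518K counts were above every induced wild-type count. Per library scaled by TMM, means were 677.0 ± 36.0 CPM in KO, 2.84 ± 0.798 in wild type and 33.0 ± 9.51 in E518K (n = 3 each, SD). Among the induced groups the KO counts thus stood highest by a wide margin, while the untreated E518K count came close to the lowest KO count. The fitted log2 difference from wild type was 7.80 ± 0.55 (SE) in KO, with edgeR's adjusted p = 4.22e-39, and 3.43 ± 0.50 in E518K, with adjusted p = 1.08e-10. With 1 library left out, named in parentheses, the log2 difference moved for KO to 7.16 (KO library 1), 8.4999 (KO library 2) and 8.46 (KO library 3) and for E518K to 4.36 (wild-type clone 16). It held 19.5% of the members' counts in KO and 5.26% in induced wild type, the 5p arm having none in any library.

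miR-7068-3p is the 3p arm of the whole-intron mirtron of Cherp. It had 103, 89 and 71 counts in KO against 9, 9 and 18 in induced wild type, with 33, 47 and 40 in induced E518K and, untreated, 25 in wild type and 94 in E518K. All 3 KO counts and all 3 induced E518K counts were above every induced wild-type count. As scaled values, means were 234.4 ± 28.3 CPM in KO, 3.49 ± 0.853 in wild type and 33.6 ± 10.5 in E518K (n = 3 each, SD). The groups stood in the order KO, E518K, wild type, and the fitted log2 difference from wild type was 6.07 ± 0.56 (SE) in KO, with edgeR's adjusted p = 7.91e-25, and 3.26 ± 0.53 in E518K, with adjusted p = 6.09e-09. The log2 difference of miR-7068-3p moved for KO to 5.43 (KO library 1), 6.73 (KO library 2), 6.80 (KO library 3) and 6.75 (wild-type clone 10) and for E518K to 3.95 (wild-type clone 16) when the library in parentheses was left out.

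miR-6896-5p comes from the acceptor end of an intron of Dst. Its libraries had 87, 84 and 79 counts in KO, 2, 10 and 4 in induced wild type and 36, 6 and 14 in induced E518K, and 47 (wild type) and 104 (E518K) without doxycycline. In raw counts KO and wild type did not overlap, and E518K and wild type did. In scaled units, means were 226.2 ± 35.7 CPM in KO, 1.59 ± 1.26 in wild type and 14.2 ± 9.28 in E518K (n = 3 each, SD). The 3p arm was listed with 2 counts in all, and for the 5p arm the fitted log2 difference from wild type was 7.11 ± 0.61 (SE) in KO, with edgeR's adjusted p = 2.48e-28, and 3.15 ± 0.59 in E518K, with adjusted p = 6.19e-07. Leaving out 1 library (in parentheses) moved the log2 difference for KO to 7.80 (KO library 2), 7.75 (KO library 3) and 8.48 (wild-type clone 12) and for E518K to 3.80 (wild-type clone 12).

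miR-6992-5p comes from an intron of Stx5a, which encodes a SNARE of the Golgi, and is the member with the longest hairpin (109 bases). It had 37, 69 and 68 counts in the KO libraries, 18, 30 and 32 in induced wild type, 60, 46 and 38 in induced E518K, and, without doxycycline, 40 in wild type and 70 in E518K. All 3 KO counts and all 3 induced E518K counts were above every induced wild-type count. After scaling, means were 164.5 ± 74.1 CPM in KO, 7.95 ± 1.76 in wild type and 38.6 ± 0.578 in E518K (n = 3 each, SD). Its share of the members' counts went the other way from that of miR-6979-3p, with 4.46% in KO and 12.8% in induced wild type, and the fitted log2 difference from wild type was 4.37 ± 0.53 (SE) in KO, with edgeR's adjusted p = 2.77e-15, and 2.29 ± 0.50 in E518K, with adjusted p = 2.01e-05. With 1 library left out, named in parentheses, the log2 difference moved for KO to 5.01 (wild-type clone 12).

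miR-7079-3p lies in an intron of Rpl13, the gene of a protein of the large ribosomal subunit. It had 55, 50 and 52 counts in KO against 10, 24 and 36 in induced wild type, with 24, 22 and 12 in induced E518K and, untreated, 30 in wild type and 72 in E518K. In raw counts KO and wild type did not overlap, and E518K and wild type did. With TMM scaling, means were 141.97 ± 21.8 CPM in KO, 6.29 ± 1.23 in wild type and 15.4 ± 3.12 in E518K (n = 3 each, SD). E518K was close to the threshold and KO was not, since the fitted log2 difference from wild type was 4.46 ± 0.54 (SE) in KO, with edgeR's adjusted p = 3.46e-15, and 1.27 ± 0.53 in E518K, with adjusted p = 0.0289. The log2 difference of miR-7079-3p moved for KO to 5.14 (KO library 2) and 5.09 (wild-type clone 12) and for E518K to 1.96 (wild-type clone 16) when the library in parentheses was left out. It no longer passed in E518K without wild-type clone 10 (log2 0.98, adjusted p = 0.188 by edgeR), wild-type clone 12 (0.134), E518K clone 8 (0.098) or E518K clone 13 (0.116), and with the constants of the authors' scaled values (0.0749).

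miR-6966-3p lies in Narfl, a gene of cytosolic iron-sulfur protein assembly. It had 46, 44 and 38 counts in KO, 4, 0 and 8 in induced wild type and 18, 2 and 8 in induced E518K, and 14 (wild type) and 34 (E518K) without doxycycline. Each KO count was above all wild-type counts, while those of induced E518K and wild type overlapped. Scaled, means were 115.3 ± 17.01 CPM in KO, 1.15 ± 1.02 in wild type and 7.17 ± 5.12 in E518K (n = 3 each, SD). Both mutant groups passed the test, since the fitted log2 difference from wild type was 6.59 ± 0.66 (SE) in KO, with edgeR's adjusted p = 2.27e-21, and 2.63 ± 0.69 in E518K, with adjusted p = 0.000398. Leaving out 1 library (in parentheses) moved the log2 difference for KO to 7.20 (KO library 2), 7.23 (KO library 3) and 7.39 (wild-type clone 10) and for E518K to 1.91 (wild-type clone 12) and 3.67 (wild-type clone 16).

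miR-7073-5p lies in Cnot1, the scaffold gene of the CCR4-NOT deadenylase. It had 47, 40 and 30 counts in the KO libraries, 0, 10 and 6 in induced wild type, 24, 4 and 6 in induced E518K, and, without doxycycline, 32 in wild type and 54 in E518K. In raw counts KO and wild type did not overlap, and E518K and wild type did. On the CPM scale, means were 103.9 ± 14.6 CPM in KO, 1.38 ± 1.54 in wild type and 8.36 ± 6.5 in E518K (n = 3 each, SD). E518K clone 8 carried most of the E518K counts, and the fitted log2 difference from wild type was 6.06 ± 0.63 (SE) in KO, with edgeR's adjusted p = 7.95e-20, and 2.49 ± 0.65 in E518K, with adjusted p = 0.000353. With 1 library left out, named in parentheses, the log2 difference moved for KO to 5.42 (KO library 1), 6.74 (KO library 2), 6.83 (KO library 3) and 7.46 (wild-type clone 12) and for E518K to 3.11 (wild-type clone 12). The E518K call was lost without that clone (log2 1.72, adjusted p = 0.0991 by edgeR).

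miR-6932-5p lies in Helz, the gene of an RNA helicase. It had 34, 50 and 28 counts in KO against 0, 0 and 14 in induced wild type, with 8, 8 and 2 in induced E518K and, untreated, 10 in wild type and 32 in E518K. In raw counts KO and wild type did not overlap, and E518K and wild type did. Its scaled means are wide, since means were 102.6 ± 41.6 CPM in KO, 0.865 ± 1.5 in wild type and 4.63 ± 2.38 in E518K (n = 3 each, SD). All wild-type counts were in clone 16, and the fitted log2 difference from wild type was 6.38 ± 0.66 (SE) in KO, with edgeR's adjusted p = 6.01e-20, and 1.98 ± 0.73 in E518K, with adjusted p = 0.0124. Without that clone no wild-type count remained and the fitted differences, which are then no bounds, were 9.74 in KO and 5.89 in E518K, and without KO library 3 the KO difference was 7.02. E518K no longer passed without wild-type clone 10 (adjusted p = 0.158 by edgeR), wild-type clone 12 (0.231), E518K clone 8 (0.0844) or E518K clone 13 (0.122), with DESeq2 size factors (0.0524) or by the DESeq2 test (0.0589).

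miR-7021-5p lies in Prdm2, the gene of a histone methyltransferase. It had 28, 44 and 26 counts in KO, 0, 4 and 12 in induced wild type and 38, 10 and 13 in induced E518K, and 14 (wild type) and 48 (E518K) without doxycycline. KO libraries were all higher than wild type, whereas E518K overlapped with wild type. In CPM, means were 90.3 ± 37.4 CPM in KO, 1.15 ± 1.11 in wild type and 15.4 ± 8.52 in E518K (n = 3 each, SD). Both mutant groups were called, and the fitted log2 difference from wild type was 5.95 ± 0.64 (SE) in KO, with edgeR's adjusted p = 5.52e-19, and 3.44 ± 0.63 in E518K, with adjusted p = 2.56e-07. The log2 difference of miR-7021-5p moved for KO to 6.59 (KO library 3) and 6.81 (wild-type clone 16) and for E518K to 2.85 (wild-type clone 10) and 4.90 (wild-type clone 16) when the library in parentheses was left out.

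miR-6900-3p lies in Ndufa10, the gene of a subunit of respiratory complex I. It had 47, 40 and 25 counts in the KO libraries, 4, 6 and 24 in induced wild type, 10, 4 and 4 in induced E518K, and, without doxycycline, 14 in wild type and 24 in E518K. Each KO count was above all wild-type counts, while those of induced E518K and wild type overlapped. By scaled level, means were 98.8 ± 21.9 CPM in KO, 2.74 ± 1.48 in wild type and 4.63 ± 1.69 in E518K (n = 3 each, SD). The KO group was called and E518K was not, since the fitted log2 difference from wild type was 5.04 ± 0.60 (SE) in KO, with edgeR's adjusted p = 4.34e-16, and 0.68 ± 0.66 in E518K, with adjusted p = 0.358. Leaving out 1 library (in parentheses) moved the log2 difference for KO to 4.33 (KO library 1), 5.63 (KO library 2), 5.83 (KO library 3) and 5.75 (wild-type clone 16). Without wild-type clone 16 the E518K difference was 1.93 with adjusted p = 0.0425 by edgeR.

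miR-6945-3p comes from Pdlim7 and had no count in induced wild type. It had 46, 42 and 20 counts in KO against 0, 0 and 0 in induced wild type, with 2, 2 and 0 in induced E518K and, untreated, 4 in wild type and 42 in E518K. All KO libraries had 20 or more counts, and those of E518K were few. The KO level of 95.04 ± 32.6 CPM (SD, n = 3) was at least 48.5-fold higher than the mean wild-type floor of 1.96 CPM. E518K had 0.99 ± 0.876 CPM and passed the test (adjusted p = 0.00926 by edgeR), but not without E518K clone 13 (0.0527). Its E518K level was under the wild-type floor, so no fold is given.

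miR-6975-3p lies in Ddx39b, the gene of an RNA helicase of splicing and mRNA export. It had 24, 27 and 26 counts in KO, 0, 4 and 2 in induced wild type and 16, 4 and 14 in induced E518K, and 2 (wild type) and 38 (E518K) without doxycycline. Each KO count was above all wild-type counts, while those of induced E518K and wild type overlapped. By CPM, means were 70.5 ± 16.8 CPM in KO, 0.528 ± 0.622 in wild type and 9.3 ± 5.48 in E518K (n = 3 each, SD). Both mutant groups passed, and the fitted log2 difference from wild type was 6.76 ± 0.71 (SE) in KO, with edgeR's adjusted p = 1.21e-19, and 3.85 ± 0.74 in E518K, with adjusted p = 1.18e-06. With 1 library left out, named in parentheses, the log2 difference moved for KO to 7.39 (KO library 2) and 8.13 (wild-type clone 12) and for E518K to 4.57 (wild-type clone 12).

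**Figure D4:**
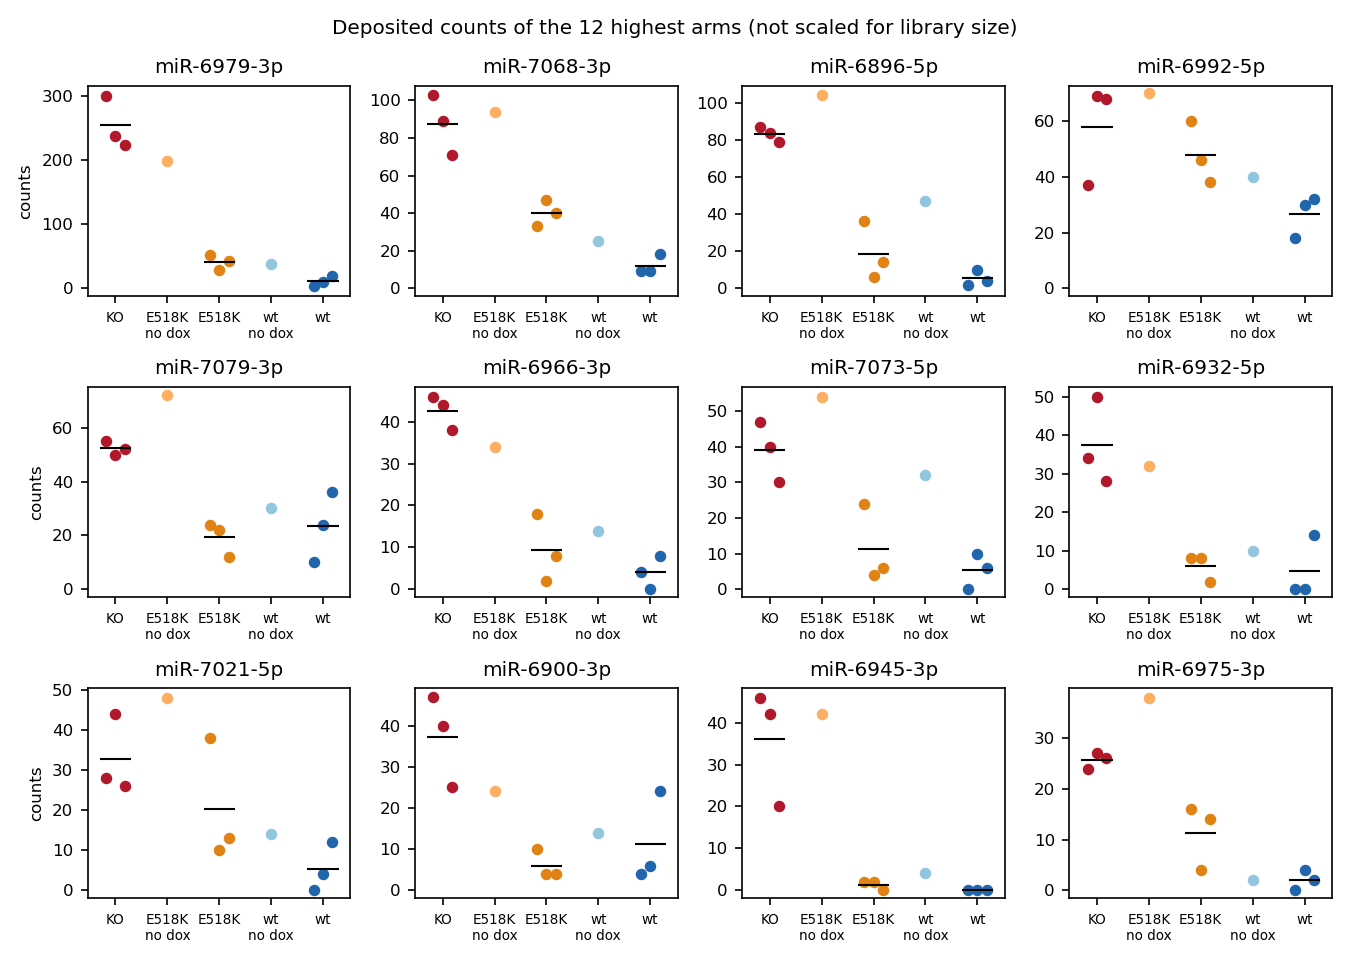
Deposited counts, not scaled for library size, of the 12 most abundant members, with 1 point per library and the mean of each group of 3 as a bar. KO counts are above induced wild type in every library for all 12, and the KO libraries are the shallowest. The 12 were chosen by their mean scaled level over the induced groups, to which KO adds most, so this is a description. Over all members it holds for 44 of 74, beside 15.8% of the tested miRNAs.

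Hairpins differed in which arm was counted. Over all libraries, 25 of the 62 hairpins had more than 80% of their counts on the 5p arm, 22 had more than 80% on the 3p arm and 15 lay between. For miR-7068 the 5p arm took 2.23% (exact binomial 95% interval 0.464 to 6.403, on counts divided by 2) of its counts in KO, 9 of 45 counts (5.19% to 40.3%) in induced wild type and 25.9% (16.8 to 36.9) in induced E518K, with 6.93% in untreated E518K and 0 of 25 counts in untreated wild type. The counts were 6 of the 5p arm beside 263 of the 3p arm in KO, 9 beside 36 in wild type and 42 beside 120 in induced E518K. Among libraries, miR-7068-5p had 2, 2 and 2 counts in the KO libraries, 0, 7 and 2 in induced wild type, 2, 22 and 18 in induced E518K, and, without doxycycline, 0 in wild type and 7 in E518K. It was thus low in every KO library, and the E518K counts came from clones 13 and 15. Its call in KO against wild type (log2 2.53) was lost without KO library 1 (adjusted p = 0.16 by edgeR) or wild-type clone 16 (0.088), with the RPM constants (log2 0.82, 0.474), by the DESeq2 test (0.0558) and with halved counts (0.215), and turned to -3.58 on the scaling by the DGCR8-independent list and to -2.49 on that without miR-1981. The log2 difference of miR-7068-5p moved for KO to 3.24 (KO library 2), 3.15 (KO library 3) and 4.49 (wild-type clone 12) and for E518K to 5.07 (wild-type clone 12) and 4.42 (E518K clone 8) when the library in parentheses was left out. Among the other whole-intron hairpins with both arms among the members, miR-7070 had 50.4% (37.6 to 62.4) on the 5p arm in KO, 17.8% (5.19 to 40.3) in induced E518K and 0 of 8 counts in induced wild type. miR-6970 had 18 of 36 counts on the 5p arm in KO and 2 of 10 in induced E518K, and miR-7091 had 6 of 22 and 4 of 11, with wide intervals. The intervals cover counting error only, and no difference between groups was tested.

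**Figure D5:**
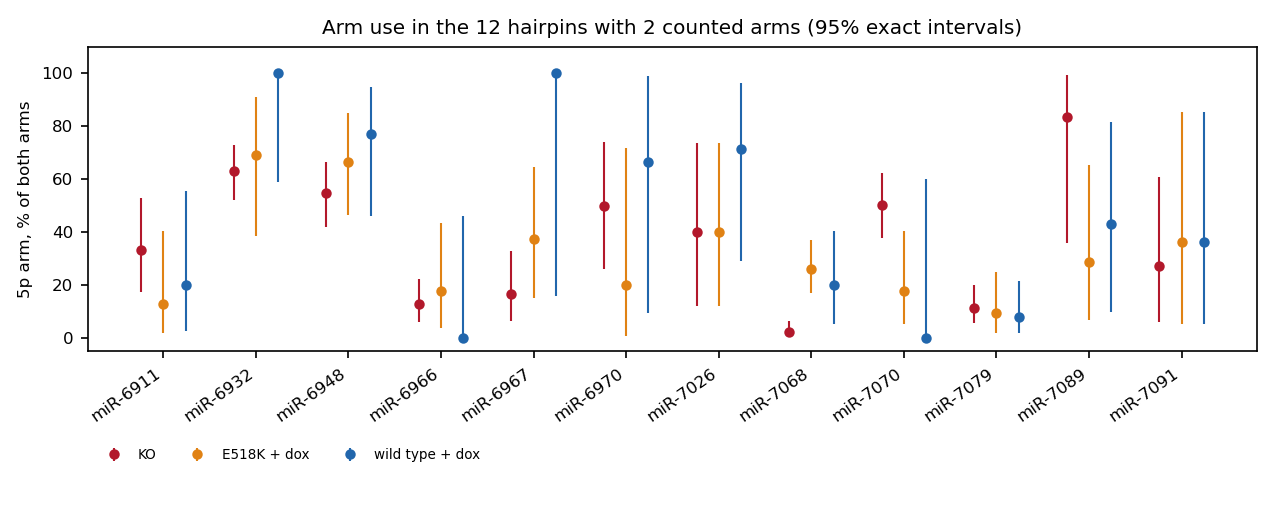
Share of counts on the 5p arm, in percent, for the 12 hairpins with both arms among the members, by induced group, with exact binomial 95% intervals on counts divided by 2. For miR-7068 the 5p share is 2.23% in KO and 25.9% in induced E518K.

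The remaining members are ordered by the role of the gene whose intron holds them. miR-6948-5p, from Acin1, the gene of a protein bound to spliced RNA, had 26, 25 and 24 counts in the KO libraries, 4, 6 and 10 in induced wild type, 15, 13 and 6 in induced E518K, and, without doxycycline, 14 in wild type and 36 in E518K. miR-6948-3p, the other arm of the same hairpin, had 24, 22 and 16 counts in KO against 0, 2 and 4 in induced wild type, with 7, 6 and 4 in induced E518K and, untreated, 6 in wild type and 5 in E518K. miR-6911-3p, from the RNA-binding protein gene Dazap1, had 23, 9 and 8 counts in KO, 2, 2 and 12 in induced wild type and 15, 6 and 6 in induced E518K, and 4 (wild type) and 28 (E518K) without doxycycline. miR-6948-5p and miR-6948-3p had higher counts in each KO library than in any induced wild-type library, and those of miR-6911-3p overlapped. miR-6948-5p, miR-6948-3p and miR-6911-3p differed from wild type in the fit by a log2 of 5.11, 6.47 and 4.53 in KO and 2.22, 2.90 and 2.27 in E518K, respectively. miR-6948-5p, miR-6948-3p and miR-6911-3p passed the test in E518K. miR-6911-5p, the partner of miR-6911-3p, had 4, 12 and 4 counts in the KO libraries, 0, 0 and 4 in induced wild type, 0, 0 and 4 in induced E518K, and, without doxycycline, 2 in wild type and 4 in E518K. miR-7054-5p, from Scaf1, which encodes a factor associated with RNA polymerase, had 6, 8 and 10 counts in KO against 0, 0 and 4 in induced wild type, with 9, 2 and 4 in induced E518K and, untreated, 10 in wild type and 16 in E518K. miR-6994-3p, from Patl1, a gene of mRNA decapping, had 14, 14 and 14 counts in KO, 2, 2 and 10 in induced wild type and 0, 8 and 3 in induced E518K, and 10 (wild type) and 22 (E518K) without doxycycline. miR-7054-5p and miR-6994-3p had higher counts in each KO library than in any induced wild-type library, and those of miR-6911-5p overlapped. miR-6911-5p, miR-7054-5p and miR-6994-3p differed from wild type in the fit by a log2 of 5.48, 5.67 and 4.84 in KO and 1.56, 3.22 and 1.24 in E518K, respectively. miR-7054-5p passed the test in E518K, and miR-6911-5p and miR-6994-3p did not (adjusted p = 0.322 and 0.167 by edgeR).

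miR-6970-3p, the 3p arm of the whole-intron hairpin of Skiv2l, which encodes an RNA helicase of the exosome, had 6, 4 and 8 counts in the KO libraries, 0, 2 and 0 in induced wild type, 4, 4 and 0 in induced E518K, and, without doxycycline, 4 in wild type and 4 in E518K. miR-6970-5p, the partner of miR-6970-3p, had 6, 4 and 8 counts in KO against 4, 0 and 0 in induced wild type, with 0, 0 and 2 in induced E518K and, untreated, 4 in wild type and 8 in E518K. miR-6998-3p, from Fubp3, the gene of a single-strand DNA-binding protein, had 0, 2 and 5 counts in KO, 2, 0 and 4 in induced wild type and 6, 4 and 4 in induced E518K, and 4 (wild type) and 2 (E518K) without doxycycline. miR-6970-3p had higher counts in each KO library than in any induced wild-type library, and those of miR-6970-5p and miR-6998-3p overlapped. miR-6970-3p, miR-6970-5p and miR-6998-3p differed from wild type in the fit by a log2 of 5.88, 4.95 and 3.39 in KO and 2.97, 0.28 and 2.59 in E518K, respectively. The KO mean of miR-6998-3p, 7.08 CPM, was under the KO floor of 12.8 to 18.3 CPM. miR-6970-3p and miR-6998-3p passed the test in E518K, and miR-6970-5p did not (adjusted p = 0.87 by edgeR). miR-7092-5p, from Fam50a, had 8, 6 and 8 counts in the KO libraries, 2, 2 and 6 in induced wild type, 6, 0 and 2 in induced E518K, and, without doxycycline, 4 in wild type and 10 in E518K. miR-7038-5p, from the translation initiation gene Eif3b, had 10, 6 and 4 counts in KO against 0, 2 and 6 in induced wild type, with 0, 0 and 0 in induced E518K and, untreated, 12 in wild type and 8 in E518K. miR-7071-3p, from Heatr3, had 4, 4 and 8 counts in KO, 0, 3 and 0 in induced wild type and 2, 0 and 0 in induced E518K, and 0 (wild type) and 2 (E518K) without doxycycline. miR-7071-3p had higher counts in each KO library than in any induced wild-type library, and those of miR-7092-5p and miR-7038-5p overlapped. miR-7092-5p, miR-7038-5p and miR-7071-3p differed from wild type in the fit by a log2 of 4.31, 4.502 and 5.29 in KO and 1.12, no value (0 counts) and 0.66 in E518K, respectively. miR-7092-5p, miR-7038-5p and miR-7071-3p did not pass the test in E518K (adjusted p = 0.319, 0.14 and 0.724 by edgeR). miR-7084-5p, from the transcription elongation gene Elof1, had 0, 2 and 6 counts in the KO libraries, 0, 0 and 0 in induced wild type, 0, 0 and 5 in induced E518K, and, without doxycycline, 0 in wild type and 10 in E518K. miR-7084-5p overlapped between KO and induced wild type in raw counts. miR-7084-5p had no count in induced wild type. Its KO mean of 8.10 CPM was under the KO floor of 12.8 to 18.3 CPM, so no fold is given. It passed the test in E518K, with all E518K counts in clone 15 and a mean of 1.68 CPM. This mean was under the mean wild-type floor of 1.96 CPM.

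miR-6938-3p, from the mismatch repair gene Mlh3, had 14, 6 and 18 counts in the KO libraries, 0, 0 and 0 in induced wild type, 7, 4 and 10 in induced E518K, and, without doxycycline, 3 in wild type and 12 in E518K. miR-7075-3p, from Terf2, the gene of a telomere-binding protein, had 8, 18 and 2 counts in KO against 2, 4 and 4 in induced wild type, with 7, 4 and 8 in induced E518K and, untreated, 4 in wild type and 7 in E518K. miR-6898-5p, from Kansl3, a gene of a histone acetyltransferase complex, had 6, 12 and 8 counts in KO, 0, 0 and 2 in induced wild type and 6, 0 and 0 in induced E518K, and 0 (wild type) and 6 (E518K) without doxycycline. miR-6938-3p and miR-6898-5p had higher counts in each KO library than in any induced wild-type library, and those of miR-7075-3p overlapped. miR-7075-3p and miR-6898-5p differed from wild type in the fit by a log2 of 4.62 and 6.54 in KO and 2.35 and 2.63 in E518K, respectively. miR-6938-3p had no count in induced wild type, so the KO level was at least 17.5-fold higher than the floor. miR-6938-3p and miR-7075-3p passed the test in E518K, and miR-6898-5p did not (adjusted p = 0.0652 by edgeR). miR-7026-3p, from the chromatin remodeller gene Ep400, had 4, 4 and 4 counts in the KO libraries, 0, 2 and 2 in induced wild type, 6, 4 and 2 in induced E518K, and, without doxycycline, 0 in wild type and 4 in E518K. miR-7026-5p, the partner of miR-7026-3p, had 0, 4 and 4 counts in KO against 4, 2 and 4 in induced wild type, with 6, 2 and 0 in induced E518K and, untreated, 0 in wild type and 8 in E518K. miR-6947-5p, from Actr8, a gene of the INO80 remodeller, had 4, 0 and 8 counts in KO, 2, 0 and 0 in induced wild type and 0, 6 and 5 in induced E518K, and 2 (wild type) and 4 (E518K) without doxycycline. miR-7026-3p had higher counts in each KO library than in any induced wild-type library, and those of miR-7026-5p and miR-6947-5p overlapped. miR-7026-3p, miR-7026-5p and miR-6947-5p differed from wild type in the fit by a log2 of 4.61, 2.81 and 5.20 in KO and 2.86, 0.94 and 3.46 in E518K, respectively. miR-7026-3p and miR-6947-5p passed the test in E518K, and miR-7026-5p did not (adjusted p = 0.485 by edgeR). miR-6968-3p, from the Polycomb gene Phf1, had 2, 14 and 4 counts in the KO libraries, 0, 0 and 2 in induced wild type, 0, 0 and 2 in induced E518K, and, without doxycycline, 0 in wild type and 4 in E518K. miR-7003-5p, from the cell-cycle transcription factor gene Mybl2, had 4, 8 and 6 counts in KO against 0, 0 and 2 in induced wild type, with 6, 0 and 2 in induced E518K and, untreated, 0 in wild type and 8 in E518K. miR-7053-3p, from Pold1, the gene of a replicative DNA polymerase, had 4, 0 and 4 counts in KO, 0, 0 and 4 in induced wild type and 2, 0 and 6 in induced E518K, and 0 (wild type) and 2 (E518K) without doxycycline. miR-7003-5p had higher counts in each KO library than in any induced wild-type library, and those of miR-6968-3p and miR-7053-3p overlapped. miR-6968-3p, miR-7003-5p and miR-7053-3p differed from wild type in the fit by a log2 of 6.22, 6.02 and 4.10 in KO and 1.34, 3.07 and 2.52 in E518K, respectively. miR-7003-5p passed the test in E518K, and miR-6968-3p and miR-7053-3p did not (adjusted p = 0.493 and 0.0983 by edgeR).

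miR-7083-5p, from Dock6, had 24, 24 and 23 counts in the KO libraries, 0, 4 and 7 in induced wild type, 26, 4 and 4 in induced E518K, and, without doxycycline, 10 in wild type and 32 in E518K. miR-6997-5p, from Sptan1, a spectrin gene, had 18, 16 and 12 counts in KO against 2, 2 and 0 in induced wild type, with 12, 4 and 10 in induced E518K and, untreated, 4 in wild type and 31 in E518K. miR-7017-5p, from Wasf2, a gene of actin branching, had 12, 6 and 6 counts in KO, 2, 2 and 4 in induced wild type and 0, 2 and 2 in induced E518K, and 8 (wild type) and 7 (E518K) without doxycycline. miR-7083-5p, miR-6997-5p and miR-7017-5p had higher counts in each KO library than in any induced wild-type library. miR-7083-5p, miR-6997-5p and miR-7017-5p differed from wild type in the fit by a log2 of 5.92, 6.41 and 4.65 in KO and 3.03, 3.88 and 0.51 in E518K, respectively. miR-7083-5p and miR-6997-5p passed the test in E518K, and miR-7017-5p did not (adjusted p = 0.707 by edgeR). miR-6960-5p, from Troap, the gene of a spindle protein, had 8, 4 and 12 counts in the KO libraries, 3, 4 and 2 in induced wild type, 9, 2 and 8 in induced E518K, and, without doxycycline, 12 in wild type and 12 in E518K. miR-6965-3p, from the cyclin gene Ccnf, had 18, 10 and 17 counts in KO against 0, 0 and 4 in induced wild type, with 4, 0 and 2 in induced E518K and, untreated, 8 in wild type and 26 in E518K. miR-7089-5p, from Cdc25a, the gene of a phosphatase that activates cyclin-dependent kinases, had 4, 4 and 2 counts in KO, 2, 2 and 2 in induced wild type and 4, 0 and 2 in induced E518K, and 2 (wild type) and 12 (E518K) without doxycycline. miR-6965-3p had higher counts in each KO library than in any induced wild-type library, and those of miR-6960-5p and miR-7089-5p overlapped. miR-6960-5p, miR-6965-3p and miR-7089-5p differed from wild type in the fit by a log2 of 4.46, 6.53 and 3.73 in KO and 2.41, 1.95 and 1.30 in E518K, respectively. miR-6960-5p passed the test in E518K, and miR-6965-3p and miR-7089-5p did not (adjusted p = 0.0962 and 0.35 by edgeR). miR-7089-3p, the partner of miR-7089-5p, had 2, 0 and 0 counts in the KO libraries, 0, 2 and 6 in induced wild type, 7, 2 and 6 in induced E518K, and, without doxycycline, 0 in wild type and 2 in E518K. miR-6967-3p, from the kinesin gene Kifc5b, had 12, 32 and 16 counts in KO against 0, 0 and 0 in induced wild type, with 8, 8 and 4 in induced E518K and, untreated, 4 in wild type and 20 in E518K. miR-6967-5p, the partner of miR-6967-3p, had 0, 4 and 8 counts in KO, 0, 0 and 4 in induced wild type and 4, 4 and 4 in induced E518K, and 8 (wild type) and 12 (E518K) without doxycycline. miR-6967-3p had higher counts in each KO library than in any induced wild-type library, and those of miR-7089-3p and miR-6967-5p overlapped. The fitted log2 difference of miR-7089-3p from wild type was 1.25 in KO, where it was not called (adjusted p = 0.503 by edgeR), and 2.46 in E518K. For miR-6967-5p it was 4.75 in KO and 2.98 in E518K. The KO means of these arms, 1.42 and 12.1 CPM, were under the KO floor of 12.8 to 18.3 CPM. miR-6967-3p had no count in induced wild type, so the KO level was at least 29.0-fold higher than the wild-type floor. miR-6967-3p and miR-6967-5p passed the test in E518K, and miR-7089-3p did not (adjusted p = 0.0633 by edgeR). miR-6967 has a pair of identical hairpins on chr17, so the counts of its arms cannot be assigned to 1 locus.

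miR-7059-5p, from the lysosomal membrane protein gene Cln3, had 6, 23 and 26 counts in the KO libraries, 0, 2 and 2 in induced wild type, 7, 4 and 4 in induced E518K, and, without doxycycline, 6 in wild type and 18 in E518K. miR-6988-3p, from Syvn1, the gene of an ubiquitin ligase of the endoplasmic reticulum, had 16, 16 and 6 counts in KO against 0, 2 and 0 in induced wild type, with 3, 2 and 2 in induced E518K and, untreated, 0 in wild type and 11 in E518K. miR-6955-5p, from Gga1, a clathrin adaptor gene of the Golgi, had 6, 8 and 6 counts in KO, 2, 0 and 0 in induced wild type and 8, 2 and 0 in induced E518K, and 2 (wild type) and 14 (E518K) without doxycycline. miR-7059-5p, miR-6988-3p and miR-6955-5p had higher counts in each KO library than in any induced wild-type library. miR-7059-5p, miR-6988-3p and miR-6955-5p differed from wild type in the fit by a log2 of 6.86, 6.94 and 5.98 in KO and 3.18, 2.84 and 3.19 in E518K, respectively. miR-7059-5p, miR-6988-3p and miR-6955-5p passed the test in E518K. The E518K mean of miR-6988-3p, 1.88 CPM, was under the mean wild-type floor of 1.96 CPM. miR-7063-5p, from the endocytic adaptor gene Ap2a2, had 6, 2 and 2 counts in the KO libraries, 0, 4 and 4 in induced wild type, 2, 4 and 2 in induced E518K, and, without doxycycline, 0 in wild type and 10 in E518K. miR-7030-3p, from the endosomal GTPase gene Rab35, had 6, 0 and 6 counts in KO against 0, 0 and 0 in induced wild type, with 8, 0 and 0 in induced E518K and, untreated, 0 in wild type and 6 in E518K. miR-6959-5p, from Sbf1, had 6, 6 and 4 counts in KO, 4, 2 and 5 in induced wild type and 0, 2 and 2 in induced E518K, and 0 (wild type) and 6 (E518K) without doxycycline. miR-7063-5p, miR-7030-3p and miR-6959-5p overlapped between KO and induced wild type in raw counts. miR-7063-5p and miR-6959-5p differed from wild type in the fit by a log2 of 3.44 and 3.62 in KO and 1.503 and 0.04 in E518K, respectively. miR-7030-3p had no count in induced wild type. Its KO mean of 10.4 CPM was under the KO floor of 12.8 to 18.3 CPM, so no fold is given. miR-7030-3p passed the test in E518K, and miR-7063-5p and miR-6959-5p did not (adjusted p = 0.253 and 0.979 by edgeR). All E518K counts of miR-7030-3p were in clone 8, and its E518K mean of 1.74 CPM was under the mean wild-type floor of 1.96 CPM. miR-6958-3p, the whole-intron hairpin of Dennd6b, had 20, 4 and 4 counts in the KO libraries, 0, 4 and 2 in induced wild type, 7, 6 and 2 in induced E518K, and, without doxycycline, 8 in wild type and 6 in E518K. miR-7015-3p, from Smap2, the gene of an Arf GTPase-activating protein, had 1, 3 and 4 counts in KO against 0, 0 and 0 in induced wild type, with 3, 0 and 0 in induced E518K and, untreated, 4 in wild type and 8 in E518K. miR-7013-3p, from the lipid kinase gene Pi4kb, had 4, 14 and 0 counts in KO, 0, 0 and 0 in induced wild type and 0, 0 and 0 in induced E518K, and 2 (wild type) and 2 (E518K) without doxycycline. miR-7015-3p had higher counts in each KO library than in any induced wild-type library, and those of miR-6958-3p and miR-7013-3p overlapped. miR-6958-3p differed from wild type in the fit by a log2 of 5.18 in KO and 2.65 in E518K. miR-7015-3p and miR-7013-3p had no count in induced wild type. The KO mean of miR-7015-3p, 7.78 CPM, was under the KO floor of 12.8 to 18.3 CPM, so no fold is given. The KO level of miR-7013-3p was at least 8.6-fold higher than the wild-type floor, but its mean of 16.8 CPM lay within the KO floor range. miR-6958-3p passed the test in E518K, and miR-7015-3p and miR-7013-3p did not (adjusted p = 0.0738 and 1 by edgeR). miR-7061-5p, from Plekha1, the gene of a lipid-binding protein, had 2, 2 and 6 counts in the KO libraries, 0, 0 and 0 in induced wild type, 2, 2 and 2 in induced E518K, and, without doxycycline, 2 in wild type and 6 in E518K. miR-7061-5p had higher counts in each KO library than in any induced wild-type library. miR-7061-5p had no count in induced wild type. Its KO mean of 9.52 CPM was under the KO floor, so no fold is given. It passed the test in E518K, with a mean of 1.66 CPM, under the mean wild-type floor of 1.96 CPM.

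miR-6952-3p, from the cell polarity gene Scrib, had 12, 24 and 10 counts in the KO libraries, 4, 2 and 2 in induced wild type, 8, 0 and 2 in induced E518K, and, without doxycycline, 2 in wild type and 8 in E518K. miR-7018-3p, the whole-intron hairpin of the basement membrane proteoglycan gene Hspg2, had 8, 13 and 11 counts in KO against 2, 4 and 2 in induced wild type, with 2, 10 and 2 in induced E518K and, untreated, 4 in wild type and 14 in E518K. miR-7090-3p, from Ctnnb1, the gene of beta-catenin, had 8, 4 and 2 counts in KO, 0, 0 and 0 in induced wild type and 4, 0 and 4 in induced E518K, and 2 (wild type) and 9 (E518K) without doxycycline. miR-6952-3p, miR-7018-3p and miR-7090-3p had higher counts in each KO library than in any induced wild-type library. miR-6952-3p and miR-7018-3p differed from wild type in the fit by a log2 of 5.57 and 5.09 in KO and 1.59 and 2.17 in E518K, respectively. miR-7090-3p had no count in induced wild type. Its KO mean of 11.7 CPM was under the KO floor of 12.8 to 18.3 CPM, so no fold is given. miR-7018-3p and miR-7090-3p passed the test in E518K, and miR-6952-3p did not (adjusted p = 0.114 by edgeR). miR-7041-5p, from Lrig1, the gene of an inhibitor of growth factor receptors, had 8, 6 and 0 counts in the KO libraries, 0, 0 and 0 in induced wild type, 4, 2 and 2 in induced E518K, and, without doxycycline, 2 in wild type and 6 in E518K. miR-6962-5p, from the activin receptor gene Acvr1b, had 0, 10 and 4 counts in KO against 0, 0 and 0 in induced wild type, with 2, 2 and 2 in induced E518K and, untreated, 2 in wild type and 0 in E518K. miR-6977-3p, at the donor end of an intron of Ptprs, had 8, 0 and 4 counts in KO, 0, 0 and 8 in induced wild type and 0, 2 and 0 in induced E518K, and 2 (wild type) and 2 (E518K) without doxycycline. miR-7041-5p, miR-6962-5p and miR-6977-3p overlapped between KO and induced wild type in raw counts. miR-6977-3p differed from wild type in the fit by a log2 of 3.84 in KO and -0.19 in E518K. miR-7041-5p and miR-6962-5p had no count in induced wild type. The KO mean of miR-7041-5p, 11.7 CPM, was under the KO floor of 12.8 to 18.3 CPM, so no fold is given. The KO level of miR-6962-5p was at least 7.18-fold higher than the wild-type floor, but its mean of 14.1 CPM lay within the KO floor range. miR-7041-5p and miR-6962-5p passed the test in E518K, and miR-6977-3p did not (adjusted p = 0.913 by edgeR). The E518K mean of miR-6962-5p, 1.66 CPM, was under the mean wild-type floor of 1.96 CPM. miR-7088-3p, the whole-intron hairpin of Mst1, had 6, 2 and 7 counts in the KO libraries, 0, 0 and 0 in induced wild type, 2, 4 and 2 in induced E518K, and, without doxycycline, 0 in wild type and 10 in E518K. miR-7088-3p had higher counts in each KO library than in any induced wild-type library. miR-7088-3p had no count in induced wild type, so the KO level was at least 6.83-fold higher than the wild-type floor. Its KO mean of 13.4 CPM lay within the KO floor of 12.8 to 18.3 CPM. miR-7088-3p passed the test in E518K, with a mean of 2.22 CPM, under the induced E518K floor.

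miR-7070-3p, the 3p arm of the whole-intron hairpin of the F-box gene Fbxw9, had 31, 10 and 27 counts in the KO libraries, 2, 0 and 6 in induced wild type, 12, 19 and 6 in induced E518K, and, without doxycycline, 4 in wild type and 32 in E518K. miR-7070-5p, the partner of miR-7070-3p, had 30, 23 and 16 counts in KO against 0, 0 and 0 in induced wild type, with 0, 4 and 4 in induced E518K and, untreated, 6 in wild type and 20 in E518K. miR-7091-3p, the 3p arm of the whole-intron hairpin of Dnase1l1, had 4, 6 and 6 counts in KO, 0, 6 and 1 in induced wild type and 5, 0 and 2 in induced E518K, and 8 (wild type) and 0 (E518K) without doxycycline. miR-7070-3p and miR-7070-5p had higher counts in each KO library than in any induced wild-type library, and those of miR-7091-3p overlapped. miR-7070-3p and miR-7091-3p differed from wild type in the fit by a log2 of 6.21 and 4.27 in KO and 3.63 and 1.32 in E518K, respectively. miR-7070-5p had no count in induced wild type, so the KO level was at least 30.9-fold higher than the floor. miR-7070-3p and miR-7070-5p passed the test in E518K, and miR-7091-3p did not (adjusted p = 0.322 by edgeR). miR-7091-5p, the partner of miR-7091-3p, had 2, 0 and 4 counts in the KO libraries, 2, 0 and 2 in induced wild type, 2, 0 and 2 in induced E518K, and, without doxycycline, 12 in wild type and 2 in E518K. miR-6937-5p, from Adi1, a gene of methionine salvage, had 6, 4 and 8 counts in KO against 2, 0 and 0 in induced wild type, with 0, 2 and 2 in induced E518K and, untreated, 4 in wild type and 8 in E518K. miR-6933-5p, from Pgs1, a gene of cardiolipin synthesis, had 2, 4 and 3 counts in KO, 0, 2 and 2 in induced wild type and 14, 4 and 0 in induced E518K, and 0 (wild type) and 10 (E518K) without doxycycline. miR-6937-5p had higher counts in each KO library than in any induced wild-type library, and those of miR-7091-5p and miR-6933-5p overlapped. miR-7091-5p, miR-6937-5p and miR-6933-5p differed from wild type in the fit by a log2 of 3.53, 5.80 and 4.21 in KO and 1.30, 2.04 and 3.34 in E518K, respectively. miR-6933-5p passed the test in E518K, and miR-7091-5p and miR-6937-5p did not (adjusted p = 0.429 and 0.193 by edgeR). miR-6918-5p, from the mitochondrial protein gene Nipsnap1, had 6, 4 and 4 counts in the KO libraries, 2, 0 and 2 in induced wild type, 4, 0 and 2 in induced E518K, and, without doxycycline, 2 in wild type and 14 in E518K. miR-6969-3p, from the colipase gene Clps, had 6, 8 and 0 counts in KO against 0, 0 and 2 in induced wild type, with 10, 2 and 2 in induced E518K and, untreated, 0 in wild type and 2 in E518K. miR-7016-5p, from Tmem39b, had 4, 4 and 6 counts in KO, 0, 2 and 2 in induced wild type and 2, 0 and 4 in induced E518K, and 0 (wild type) and 8 (E518K) without doxycycline. miR-6918-5p and miR-7016-5p had higher counts in each KO library than in any induced wild-type library, and those of miR-6969-3p overlapped. miR-6918-5p, miR-6969-3p and miR-7016-5p differed from wild type in the fit by a log2 of 4.73, 5.60 and 4.84 in KO and 1.83, 3.83 and 1.97 in E518K, respectively. miR-6969-3p passed the test in E518K, and miR-6918-5p and miR-7016-5p did not (adjusted p = 0.177 and 0.178 by edgeR). miR-7082-3p, in the gene model Gm38431, had 4, 4 and 0 counts in the KO libraries, 0, 0 and 0 in induced wild type, 4, 6 and 2 in induced E518K, and, without doxycycline, 0 in wild type and 10 in E518K. miR-7082-3p overlapped between KO and induced wild type in raw counts. miR-7082-3p had no count in induced wild type. Its KO mean of 6.84 CPM was under the KO floor of 12.8 to 18.3 CPM, so no fold is given. miR-7082-3p passed the test in E518K, with a mean of 3.21 CPM, under the induced E518K floor.

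The second arms of the most abundant hairpins followed. miR-6932-3p, the partner of miR-6932-5p, had 30, 18 and 18 counts in the KO libraries, 0, 0 and 0 in induced wild type, 6, 0 and 2 in induced E518K, and, without doxycycline, 2 in wild type and 4 in E518K. miR-7079-5p, the partner of miR-7079-3p, had 6, 8 and 6 counts in KO against 0, 4 and 2 in induced wild type, with 0, 2 and 4 in induced E518K and, untreated, 10 in wild type and 10 in E518K. miR-6966-5p, the partner of miR-6966-3p, had 11, 4 and 4 counts in KO, 0, 0 and 0 in induced wild type and 4, 2 and 0 in induced E518K, and 2 (wild type) and 14 (E518K) without doxycycline. miR-6932-3p, miR-7079-5p and miR-6966-5p had higher counts in each KO library than in any induced wild-type library. miR-7079-5p differed from wild type in the fit by a log2 of 4.82 in KO and 1.46 in E518K. miR-6932-3p and miR-6966-5p had no count in induced wild type, so the KO level was at least 29.4 and 8.11-fold higher than the wild-type floor, respectively. The KO mean of miR-6966-5p, 15.9 CPM, lay within the KO floor of 12.8 to 18.3 CPM. miR-6932-3p and miR-6966-5p passed the test in E518K, and miR-7079-5p did not (adjusted p = 0.236 by edgeR). The E518K mean of miR-6966-5p, 1.43 CPM, was under the mean wild-type floor of 1.96 CPM.

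Just inside the threshold were miR-6962-5p, miR-7013-3p and miR-7053-3p, with 22 counts each. Just outside it were miR-6922-5p, miR-6929-3p and miR-6990-5p, with 18 each.

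Other miRNA classes give the background. Against wild type, 8 of 8 tested arms of the classical mirtrons miR-702, miR-877, miR-1224, miR-1981 and miR-1982 were higher in KO (median log2 5.96), as were 4 of 4 arms derived from snoRNAs or a tRNA (4.79), 2 of 3 start-site arms (miR-320 and miR-484, 4.45) and 12 of 16 tested arms numbered miR-7646 to miR-7689 (5.94). All 18 arms of the miR-290 to miR-295 cluster, which the microprocessor makes, were lower (-8.22). In E518K the corresponding numbers higher than wild type were 7 of 8 (3.18), 4 of 4 (2.11), 2 of 3 (3.03) and 7 of 16 with 1 lower (1.93), and 9 of 18 cluster arms were lower (-0.60). The members' medians of 5.74 and 2.64 lay within the range of the medians of the lists other than the cluster.

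The non-member miRNAs whose level over the 11 libraries was most like the summed members, by Pearson's r of log2(CPM + 1), were miR-6539 (0.997), miR-664-5p (0.994), miR-12191-3p (0.994), miR-1981-5p (0.993) and miR-344f-3p (0.993). The libraries share their depths and group, so these r values are descriptions. miR-6539 had 12722, 11398 and 10320 counts in KO, 1320, 1596 and 2631 in induced wild type and 4727, 2861 and 3721 in induced E518K. It thus held more counts than all members together in every library.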

How the data were processed

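Small RNA was measured in 11 libraries of mouse embryonic stem cells. The authors deposited raw read counts of 1966 mature miRNAs, not normalized per the file header, and a second table of scaled RPM values (pRPM in its header). STAR, bedtools and the build GRCm38.p6 are named in the submitters' processing notes. How reads were counted, and with which strand setting, is not stated there. After division by 1 constant per library, all deposited RPM values (100%) were whole reads within 0.01 and equal to the counts. No source explains how the authors set these constants. The file of piRNA counts held the same bytes as the RPM file and was not used.

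Sample titles gave the groups and clones. The counts were fitted with edgeR 4.0.16 in R 4.3.3 (TMM scaling, robust quasi-likelihood over all 11 libraries in 5 groups, filterByExpr with min.count 10 and min.total.count 15), with Benjamini-Hochberg adjustment over the 730 tested miRNAs and a threshold of 0.05. The untreated groups have 1 library each and were assumed to vary like the others. The script was tested on simulated data. Alternatives were other scalings, the DESeq2 1.42.0 Wald test, no filter, only the 2 groups compared, halved counts and leaving out each replicate. Levels are TMM-scaled CPM. Shares, arm shares, positions and sequence features are descriptions. Binomial intervals are exact (Clopper-Pearson, 95%) on counts divided by 2, and intervals and floors cover counting error only.

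Hairpins and sequences were matched by name to RefSeq (GRCm38.p6), with 70 of 74 mature sequences found, and introns were taken from GENCODE for the same build. The members, lists and tests were chosen with earlier results of these data known. Values in every library are given for the 12 members with the highest mean CPM over the 3 induced groups, and for every member that passed the test in E518K or KO against wild type.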

Additional observations from a re-analysis of the deposited data

How the results depend on the processing

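Under TMM, 73 members were higher and none lower in KO than in wild type (median log2 5.74), 47 were higher and none lower in E518K than in wild type (2.64), and 56 were lower and none higher in E518K than in KO (-2.91). Scaled to the 17 DGCR8-independent arms, these became 5 higher and 7 lower (-0.31), 2 higher and 3 lower (0.0459), and 3 higher and 2 lower (0.44). Of all tested miRNAs, this scaling called 1.64% higher in KO than in wild type against 30.0% with TMM, 0.959% higher and 69.9% lower in E518K than in wild type against 28.2% and 35.3%, and 0.822% lower in E518K than in KO against 26.2%. The same scaling called 560 of the 730 lower in KO than in wild type and 447 higher in E518K than in KO. With TMM these numbers were 426 and 306. Without miR-1981 among the 17, a setting added after seeing the data, the members gave 7 higher and 2 lower (0.79), 2 higher and 3 lower (0.16), and 2 higher and 11 lower (-0.47). Of all miRNAs 3.56% were then called higher in KO, 1.64% higher and 68.2% lower in E518K, and 4.11% lower in E518K than in KO. Lower in KO than in wild type were 536 of the 730, and 412 were higher in E518K than in KO. With the constants of the authors' RPM, 18 members were lower and 1 higher in E518K than in KO (-1.20). Of all miRNAs 8.36% were then lower and 380 of 730 higher, and the members' median in KO against wild type was 3.91. Total counts gave medians of 7.25 (KO against wild type) and -4.18 (E518K against KO). Halved counts, which left 62 members after the filter, gave 4.64 and -2.07. Fitting only E518K and wild type left 9 members after the filter, all 9 higher (3.202), beside 153 of the 530 miRNAs tested there.

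Among the 12 most abundant members, miR-7068-5p and miR-7089-3p, direction against wild type changed only under the scalings named here or without KO library 1. Other members changed direction in further settings. Of all 74 members, 71 were above 0 in E518K against wild type in the main fit. This number was 67 without E518K clone 8, 67 without E518K clone 15 and 72 without wild-type clone 16. With the 17 arms, the log2 difference from wild type in E518K was -0.66 for miR-6992-5p, -1.70 for miR-7079-3p, -0.25 for miR-6966-3p, -0.44 for miR-7073-5p, -0.90 for miR-6932-5p, -2.26 for miR-6900-3p and -0.38 for miR-7089-3p, and without miR-1981 among them -0.48, -1.51, -0.0503, -0.24, -0.71, -2.06 and -0.17. In KO the values with the 17 arms were -0.25 for miR-7068-3p, -1.98 for miR-6992-5p, -1.89 for miR-7079-3p, -0.22 for miR-7073-5p, -0.31 for miR-7021-5p, -1.25 for miR-6900-3p, -3.58 for miR-7068-5p and -4.60 for miR-7089-3p. Without miR-1981 they were -0.92 for miR-6992-5p, -0.76 for miR-7079-3p, -0.10 for miR-6900-3p, -2.49 for miR-7068-5p and -3.48 for miR-7089-3p. miR-7089-3p was also at -0.53 with the RPM constants and at -3.33 to 2.47 when 1 replicate was left out, with -3.33 without KO library 1. The cause of these changes was not tested.

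Leaving out 1 replicate at a time gave member medians of 5.33 to 6.28 in KO and 2.44 to 3.60 in E518K against wild type. In E518K against KO they were -3.72 to -2.23. Called higher than wild type were 68 to 73 members in KO and 32 to 52 in E518K, and 37 to 60 were lower in E518K than in KO. Without KO library 2 only 71 members were tested. Of all tested miRNAs, 185 of 712 (without KO library 1) to 220 of 710 (without wild-type clone 10) were called higher in KO. In E518K 148 of 708 (without wild-type clone 12) to 250 of 688 (without wild-type clone 16) were called higher than wild type. Of all miRNAs 23.8% to 32.5% were lower in E518K than in wild type and 17.5% to 29.3% lower in E518K than in KO. Without the most abundant miRNA of each library in the denominator, the members' share was 1.01% in KO, 0.0471% in untreated wild type, 0.668% in untreated E518K and 0.0377% in induced E518K. With members of at least 50 counts only it was 0.624%, 0.0291%, 0.455% and 0.0265%, and without the most abundant member 0.581% in KO and 0.474% in untreated E518K. No paired analysis was possible because the compared groups share no clone number. The members' low counts, mostly under 50 per library, limit every single-member value.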
